A study of Mus musculus with 24 samples.

Results

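Cytosolic ribosomal protein genes encode the proteins of the ribosome that translates the messages of the cell nucleus. They were taken as the protein-coding rows of the deposited expression table whose symbol is Rpl or Rps with a number (with an a, x, y or l and a further digit where present) or is Rplp0, Rplp1, Rplp2 or Rpsa, with the Rps6k kinases left out. This gave 81 of 14785 genes, of which 49 belong to the large and 32 to the small subunit, on 19 chromosomes. Their level was followed in bulk RNA sequencing of kidney from male C57/BL6 mice that were 8 to 9 weeks old at the start, with 24 libraries in 6 groups of 4 mice. The groups were sham surgery (sham) and ligation of the ureter on one side, ended after 2 days (UUO2) or 7 days (UUO7). In the other 3 groups the ureter was surgically reimplanted once ligation had lasted 7 days, and kidneys were taken 1 week (R1W), then 2 weeks (R2W) and at the latest 4 weeks (R4W) after that. The labels name no engineered allele and no drug in any group. The 4 sequenced mice of a group were selected from 10, by a criterion that the labels do not give, and every library was made from polyadenylated RNA, so unadenylated ribosomal RNA is not the quantity measured here.

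A ribosome holds one molecule of nearly every ribosomal protein, and the genes of both subunits are among the most transcribed of any cell. Many of their messages start with a run of pyrimidines, the terminal oligopyrimidine (TOP) tract, through which mTOR signalling controls how strongly they are translated. In the obstructed kidney tubular epithelium is lost, inflammatory cells enter and fibroblasts multiply, and several of these processes call for new protein synthesis. A few members have a second form: Rpl22l1, Rps27l (a p53 target), Rpl7l1 and Rpl3l (a form of striated muscle) stand beside Rpl22, Rps27, Rpl7 and Rpl3.

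Some libraries stand apart. The UUO2 libraries had a summed value of mitochondrially encoded ribosomal RNA of 4630 to 5860 rescaled FPKM, and the other 20 libraries 404 to 1330, so library properties and 2 days of obstruction cannot be told apart in any comparison with UUO2. R1W replicate 3 had a higher ribosomal protein sum than the other 3 R1W libraries, and the counts, and the named genes called, in each comparison with R1W are also given without it. R4W replicate 2 is at 4 weeks by its title and at 2 weeks by its treatment label, and it was grouped by title. The series' text speaks of 20 libraries multiplexed on 3 lanes, and which of the 24 these are is not stated. The labelled tissue was checked against 6 proximal tubule genes, whose summed level was 3760 to 4870 rescaled FPKM in sham and 634 to 818 in UUO7. In bulk tissue fewer cells of a type and less RNA per cell cannot be told apart.

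The unit of the deposited values is not stated, and they are taken to be FPKM, that is fragments scaled to transcript length and to the library's total. The "rescaled" FPKM were divided by a factor per library that brings the typical gene to the same level in all 24 libraries. In the deposited values the median log2 difference over all genes was 0.42 for UUO7 minus sham, 0.30 for R4W minus sham, 0.28 for UUO7 minus UUO2 and 0.09 for UUO2 minus sham, so changes below are relative to that typical gene unless the deposited scale is named. Each gene was tested with limma on log2(rescaled FPKM + 1) in one fit over all 24 libraries, and "called" means a Benjamini-Hochberg adjusted p under 0.05 over all 14785 genes. Fold changes are on this scale and understate those of genes near 1 FPKM.

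The messages of the ribosome together took up a larger part of the transcriptome at every time after ligation than in sham kidney. As deposited, the 81 genes held 4.78%, 5.31%, 4.63% and 4.86% of the summed FPKM of the 4 sham libraries. In UUO7 they held 11.01%, 10.66%, 11.60% and 11.24%, the highest shares of any group, and all 20 libraries of the other 5 groups lay above all sham libraries. The rescaled sum, which removes the shift of the typical gene, was 47302, 46743, 45337 and 48099 FPKM in sham, then 71623, 66973, 68600 and 82900 in UUO2 and 75949, 71621, 83200 and 69908 in UUO7. The UUO2 and UUO7 libraries overlapped on that scale. After reversal the R1W libraries had 61615, 60857, 78260 and 60776, those of R2W 62709, 55273, 60236 and 53004, and those of R4W 50669, 53249, 54301 and 47032. R4W thus overlapped sham on the rescaled scale, through R4W replicate 4, whereas its deposited shares of 6.51% to 7.91% did not.

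**Figure D1:**
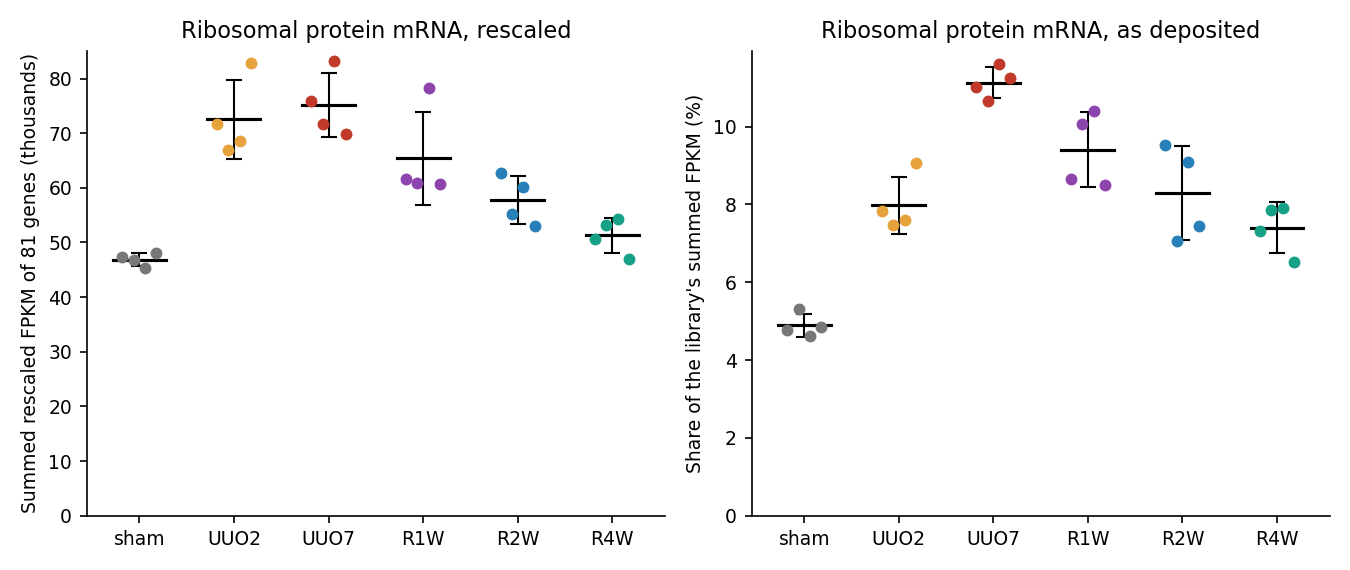
Summed level of the 81 cytosolic ribosomal protein genes in each library (points, 4 mice per group), with group mean and SD (line and bar). Left, rescaled FPKM, from 45337 in the lowest sham library to 83200 in UUO7 replicate 3 (the axis is divided by 1000). Right, percent of each library's summed FPKM as deposited, where all sham libraries lie at 4.63% to 5.31% and all UUO7 libraries at 10.66% to 11.60%.

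The start regions of these genes share a sequence feature that the choice of members did not use. RefSeq start sites on build GRCm38.p6 were available for 61 of the 81 members. A run of at least 6 bases that begins with C and holds only C and T, on the gene's own strand within 15 bases of the start, was present in 35 of these 61 (57.4%) and in 25.5% of all 27025 genes of the same table. The letters CGGAAG, the core bound by ETS factors, were found on either strand of the 300 bases around the start in 41 members (67.2%) and in 18.8% of all genes. The reverse complement of that core ends a pyrimidine run, so both features can overlap, and a match is a description of the letters and not a mapped binding site. The windows below show members with and without such a run among those named in the results, each 30 bases long with the annotated start at its middle and the longest run in capitals where it reaches 6 bases. Their positions are chr2:39005117-39005146 for Rpl35 (minus strand), chr7:4792950-4792979 for Rpl28 (plus), chr7:45128731-45128760 for Rpl13a (minus), chr3:90213634-90213663 for Rps27 (minus), chr9:66946071-66946100 for Rps27l (plus, 1 of its 2 annotated starts) and chr3:28805493-28805522 for Rpl22l1 (plus). Those without such a run are chrX:102189377-102189406 for Rps4x (minus), chr7:28350674-28350703 for Rps16 (plus), chr17:46782642-46782671 for Rpl7l1 (minus) and chr17:24727811-24727840 for Rpl3l (plus, 1 of its 2 annotated starts).
Rpl35: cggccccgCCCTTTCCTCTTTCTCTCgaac
Rpl28: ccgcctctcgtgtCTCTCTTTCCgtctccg
Rpl13a: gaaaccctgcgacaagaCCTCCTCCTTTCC
Rps27: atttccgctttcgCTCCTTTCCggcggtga
Rps27l: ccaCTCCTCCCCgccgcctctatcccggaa
Rpl22l1: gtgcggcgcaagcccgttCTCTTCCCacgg
Rps4x: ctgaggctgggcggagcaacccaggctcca
Rps16: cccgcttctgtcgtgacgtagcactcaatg
Rpl7l1: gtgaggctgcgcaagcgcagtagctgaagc
Rpl3l: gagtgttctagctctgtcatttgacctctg

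Some members cannot be fully separated from near-identical copies elsewhere in the genome. For 39 members the table holds 51 further rows, 44 of them annotated as pseudogenes and 7 as protein-coding, whose annotated transcript matches the member with at least 95% identity. Reads from such a pair cannot be assigned with certainty, and the split between gene and copy differed between libraries. Values with copies summed are given beside several of the genes named below, and the other 42 members have no such copy in the table.

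After 7 days of obstruction nearly every ribosomal protein gene was higher than in sham. Of the 81 members 77 rose, 3 fell and 1 was not called, where 36.5% of all genes tested were called higher and 36.5% lower. The median difference of the members was 0.72 on the log2 scale, a 1.64-fold higher level, with quartiles at 0.49 and 0.88, and that of all genes 0.01. Of the large-subunit genes 46 of 49 rose (median 0.63), and of the small-subunit genes 31 of 32 (median 0.75). For 77 members all 4 UUO7 libraries lay above all 4 sham libraries, which was so for 34.3% of all genes. With copies summed 78 members were called higher and 2 lower (all genes 36.4% and 36.6%), and on the deposited scale 79 and 1 (all genes 60.1% and 17.8%), with a median of 1.20. Among the 42 members without copies 39 were called higher and 2 lower.

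The most abundant member, Rpl41, which encodes a very short basic peptide (chromosome 10, 128548114 to 128549305), had 2443.2, 2433.2, 2272.6 and 2441.8 rescaled FPKM in sham and 3847.0, 3212.8, 4313.3 and 3482.5 in UUO7. The groups did not overlap, and the rise was 0.62 ± 0.12 (log2, SE, limma adjusted p = 9.78e-05). Rpl13a, whose protein is known also as a silencer of inflammatory messages, had 1763.5, 1872.3, 1663.6 and 1826.7 in sham and 3011.7, 2804.3, 3060.0 and 2828.4 in UUO7. Its rise was 0.72 ± 0.09 (limma adjusted p = 6.26e-07).

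The stalk of the large subunit, which recruits elongation factors, is made of Rplp0 and the acidic proteins Rplp1 and Rplp2. Rplp1 (chromosome 9, 61913284 to 61914542) had 1467.7, 1547.2, 1400.0 and 1506.2 rescaled FPKM in sham and 2846.7, 2613.9, 3423.6 and 2639.9 in UUO7, a rise of 0.95 ± 0.12 (log2, SE, limma adjusted p = 6.81e-07). Rplp2 rose from 411.8 ± 16.2 to 838.3 ± 150 (SD, n = 4 each), by 1.01 ± 0.15 on the log2 scale (limma adjusted p = 5.22e-06). The scaffold Rplp0 (649.8, 678.2, 682.0 and 678.4 in sham, then 1011.1, 964.4, 1073.4 and 1011.1 in UUO7) rose by 0.59 ± 0.07 (limma adjusted p = 3.52e-07). Rplp1 and Rplp2 thus had larger estimates than Rplp0, a difference between genes that was not tested.

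In the small subunit, Rps16 (chromosome 7, 28350652 to 28353155), a protein of the small subunit's head, had one of the larger rises. It had 319.3, 319.3, 312.4 and 310.5 rescaled FPKM in sham and 703.3, 644.9, 801.7 and 670.0 in UUO7, a 2.22-fold difference (limma adjusted p = 9.57e-09). Its copy Rps16-ps2 is in the table, and with the copy summed the difference was 1.03 on the log2 scale in place of 1.15, below the 1.26 of Rps12 with its copies, a gene chosen here after its value was seen. Rps4x, a small-subunit protein encoded on the X chromosome (chromosome X, 102184941 to 102189394), has no copy in the table. It had 408.3, 439.7, 429.4 and 418.4 in sham and 809.3, 793.7, 851.9 and 779.8 in UUO7, a 1.91-fold difference (limma adjusted p = 7.8e-09). Rpsa, also known as a cell-surface laminin receptor, rose from 544.6 ± 15.9 to 948.2 ± 83.9 (SD, n = 4 each, limma adjusted p = 7.4e-07). Rpl39, a small protein that lines the exit tunnel, rose 1.96-fold, from 371.7 ± 16.9 to 729.1 ± 47.3 (SD, n = 4 each, limma adjusted p = 3.21e-08).

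The largest estimate of all was that of Rpl12 (2.51-fold), part of the stalk base, but its own row held only 10.2, 11.51, 12.78 and 12.2 rescaled FPKM in sham and 34.36, 31.93, 28.72 and 28.46 in UUO7. Its near-identical rows, chiefly Gm10275, held 350.0 to 375.0 in sham and 816.8 to 1006.4 in UUO7. Gene and copies together rose by 1.30 on the log2 scale, so the direction is the same for both rows.

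Rpl3l (chromosome 17, 24727820 to 24736143) was the lowest member in every group and fell after 7 days. It had 4.18, 3.34, 3.72 and 4.15 rescaled FPKM in sham and 0.85, 0.80, 0.85 and 0.56 in UUO7, and all UUO7 libraries lay below all sham libraries. The difference was -1.46 ± 0.16 (log2, SE, limma adjusted p = 9.78e-08). Rps27l (chromosome 9, 66946086 to 66949516) had 601.9, 489.6, 565.8 and 546.6 in sham and 462.1, 452.3, 480.9 and 395.5 in UUO7. It fell relative to the typical gene by 0.30 (SE 0.09, limma adjusted p = 0.00525), and its difference is +0.19 on the deposited scale, so its direction depends on the scaling.

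Rpl10, whose protein is needed for the last step of large-subunit maturation (chromosome X, 74270812 to 74273135), was called lower, at 295.8, 247.9, 329.4 and 327.3 rescaled FPKM in sham and 211.9, 223.9, 191.5 and 237.5 in UUO7 (difference -0.47 ± 0.14, log2, SE, limma adjusted p = 0.00399). On the deposited scale the difference was 0.02. Its copy Rpl10-ps3, which matches it at 100% identity and is annotated as protein-coding, held most of the signal: gene and copies together had 868.1, 795.6, 865.4 and 853.3 in sham and 1146.9, 1121.1, 1147.7 and 1054.8 in UUO7. The sum was 0.40 higher on the log2 scale, so the call of a fall for Rpl10 alone is uncertain. Rpl7l1 was the member not called, with 35.54 to 39.53 in sham and 33.94 to 37.80 in UUO7 (difference -0.09 ± 0.06, limma adjusted p = 0.176), and was 0.39 higher on the deposited scale.

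**Figure D2:**
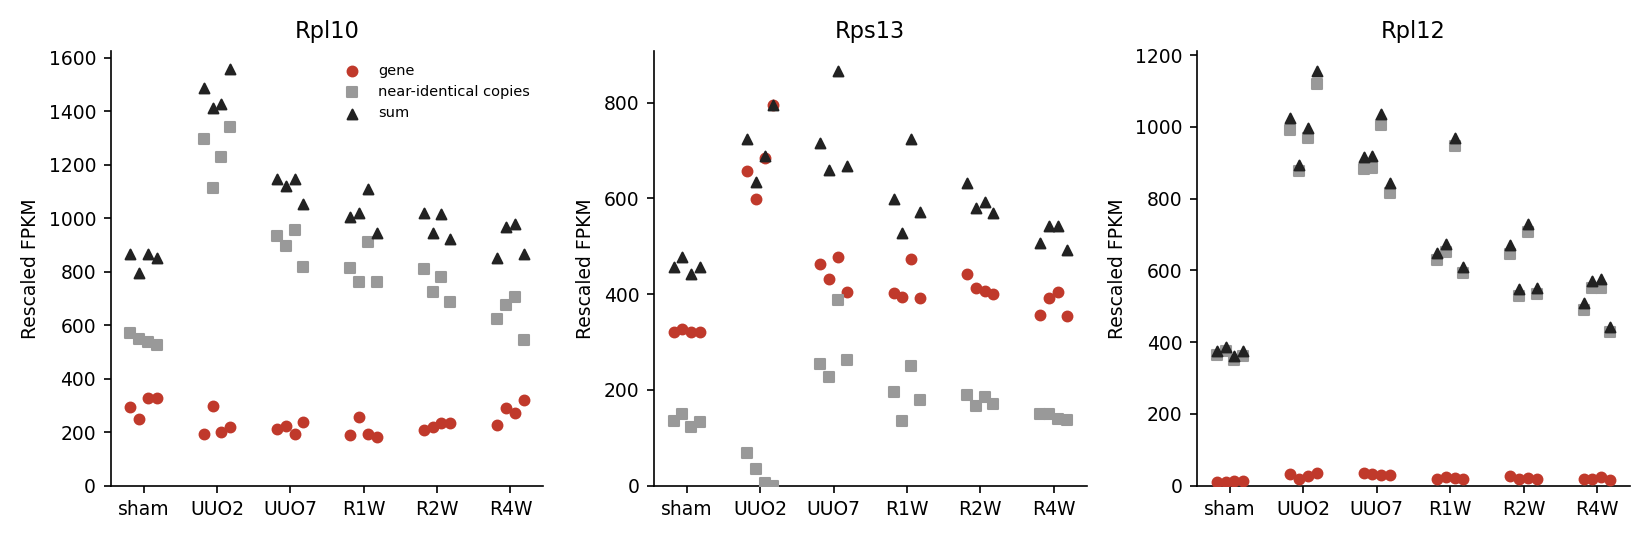
Rescaled FPKM of Rpl10, Rps13 and Rpl12 (red circles), of their near-identical copies (grey squares) and of the sum (black triangles) in each of 24 libraries, 4 per group. The Rpl10 row is lower in UUO7 than in sham while the sum is higher, the Rps13 copy is at 0 to 68.05 in UUO2, and the copies of Rpl12 hold nearly all of its signal.

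After 2 days of obstruction the same direction prevailed. Of the 81 members 76 rose, 2 fell and 3 were not called, where 25.3% of all genes tested were called higher and 25.5% lower. The members' median difference was 0.63 (1.55-fold), with quartiles at 0.48 and 0.85, and that of all genes -0.01. The members not called were Rps27l, Rpl7l1 and Rpl35a. For 77 members all UUO2 libraries lay above all sham libraries, which was so for 20.6% of all genes. On the deposited scale 77 members were called higher and 1 lower (all genes 32.3% and 17%), with a median of 0.77. Leaving out any 1 of the 8 libraries left 77 or 78 members called. These values and those of UUO7 share the sham libraries.

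The 3 largest estimates of single rows at 2 days belonged to genes with copies. Rpl10a, of the mobile stalk past which spent transfer RNA leaves the ribosome, had 216.2, 190.0, 200.3 and 209.0 rescaled FPKM in sham and 474.0, 448.7, 514.7 and 626.9 in UUO2, a 2.51-fold difference (limma adjusted p = 6.86e-09). Rpl28 had 231.4, 236.7, 216.0 and 248.3 in sham and 539.2, 504.8, 530.3 and 704.8 in UUO2, a 2.42-fold difference (limma adjusted p = 1.13e-07). Rps28, next to the messenger exit site of the small subunit, rose from 551.4 ± 33.8 to 1291.2 ± 207 (SD, n = 4 each, limma adjusted p = 1.56e-06). With copies summed these rises were 1.06, 0.92 and 1.05 on the log2 scale in place of 1.32, 1.27 and 1.21, and the order changes: Rpl12 then has the largest rise, of 1.43.

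Rpl22, an RNA-binding protein of the large subunit (chromosome 4, 152325742 to 152334071), has no copy in the table and rose 2.14-fold at 2 days. It had 418.1, 384.0, 402.2 and 392.5 rescaled FPKM in sham and 859.4, 785.8, 824.4 and 951.3 in UUO2 (limma adjusted p = 1.43e-08). Rps4x rose 1.75-fold, to 748.2, 713.2, 705.6 and 811.6 (limma adjusted p = 2.59e-07), Rplp2 rose 2.19-fold (limma adjusted p = 4.96e-06) and Rplp0 rose 1.45-fold (limma adjusted p = 5.41e-06). Rpl41 rose 1.26-fold, with 2955.7, 2714.4, 2769.8 and 3747.4 in UUO2 (limma adjusted p = 0.0259). Rpl3l fell, to 1.66, 2.24, 1.18 and 1.69 (difference -0.86 ± 0.16, limma adjusted p = 2.06e-04). The call of a fall for Rpl10 (193.7, 296.2, 199.4 and 217.6 in UUO2) is lost on the deposited scale (-0.28), in a fit on the 2 groups alone, and without UUO2 replicate 1 (difference -0.35) or replicate 3 (-0.36), and with its copies summed the difference was 0.80, so its direction reverses.

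**Figure D3:**
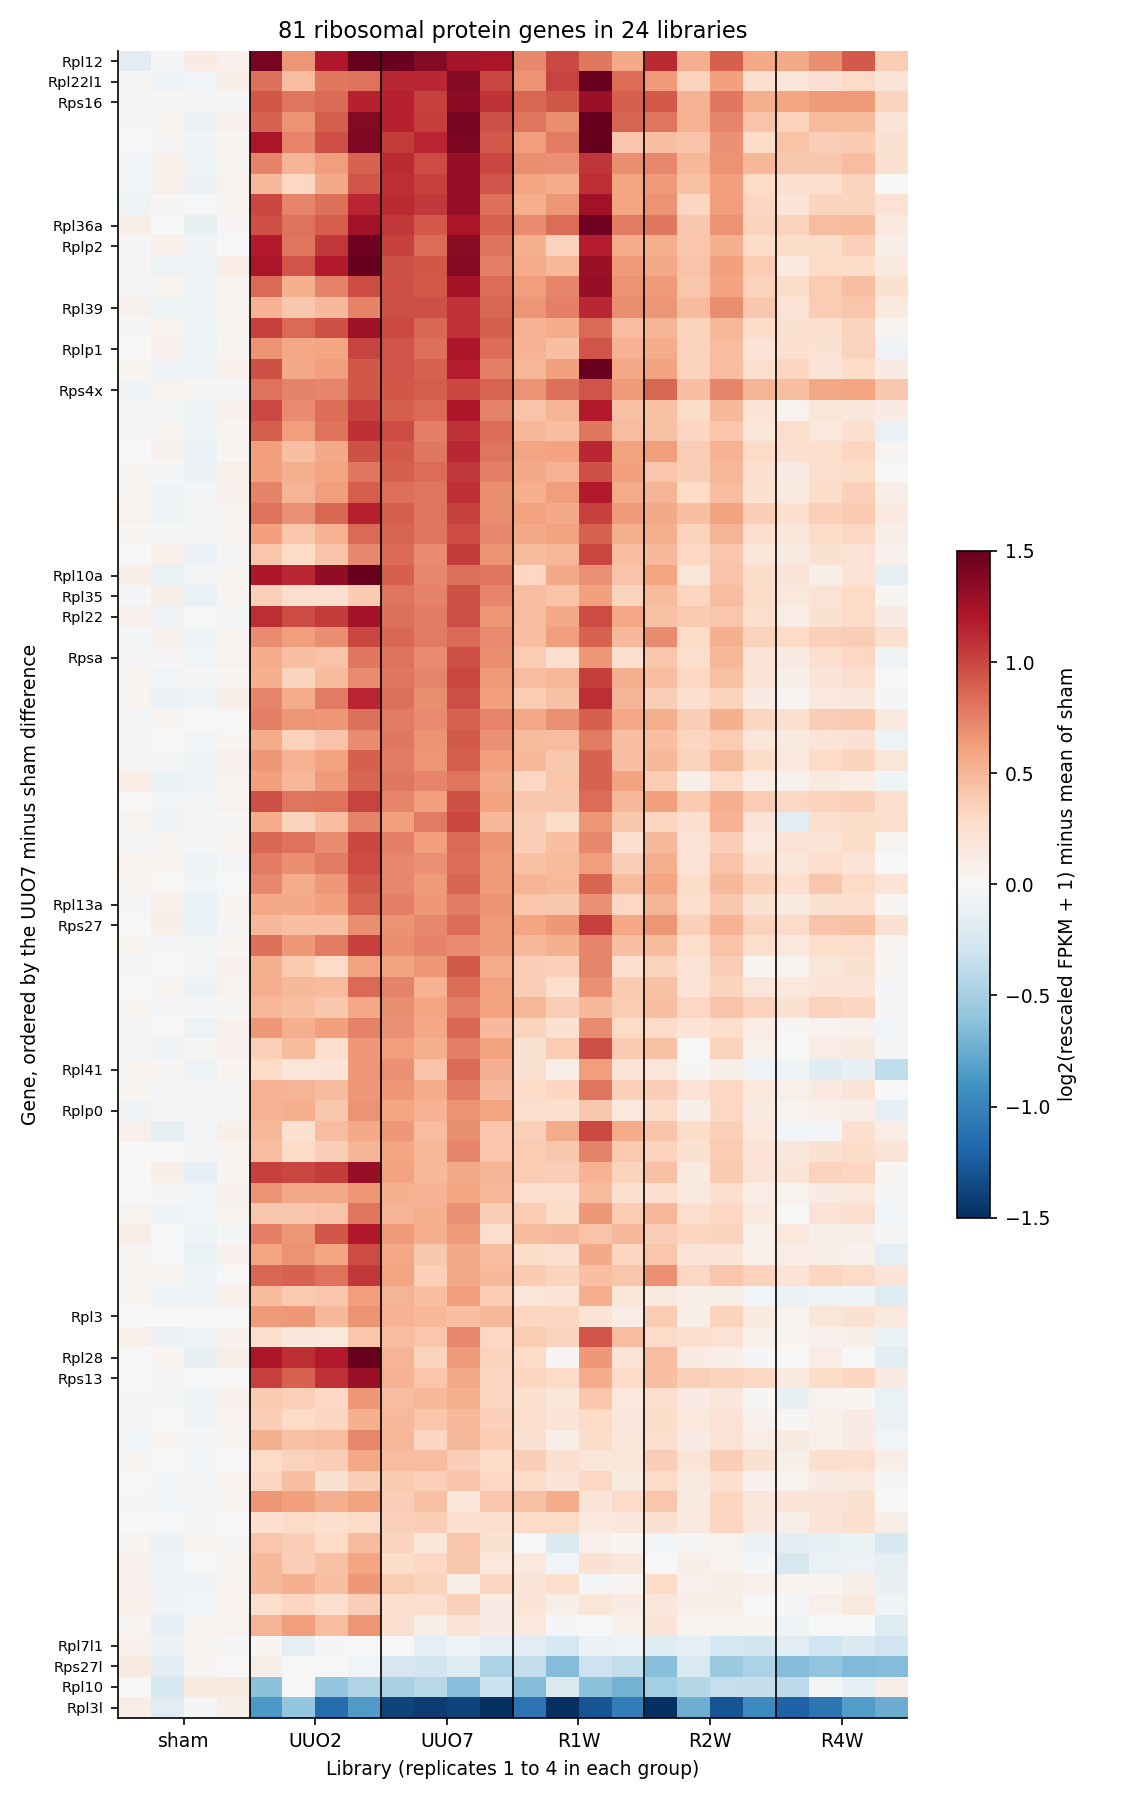
Each of the 81 genes (rows, ordered by the UUO7 minus sham difference) in each of 24 libraries (columns), as log2(rescaled FPKM + 1) minus the gene's mean in sham, with colours limited at 1.5 in either direction and labels on some of the members named in the text. Most rows are red in UUO2 and UUO7 and paler by R4W, R1W replicate 3 is redder than the other R1W libraries, and the bottom row, Rpl3l, is blue in every library outside sham.

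Between day 2 and day 7 the members as a group changed little relative to the typical gene. Of the 81 members 13 were called higher and 13 lower, where 30.0% of all genes tested were called higher and 31.9% lower, and the members' median difference was 0.05. On the deposited scale, where the typical gene was 0.28 higher, 62 were called higher and 3 lower (all genes 52.0% and 14.7%). Without UUO7 replicate 3 the count of called members was 17 in place of 26 (4 higher and 13 lower), and the share of all genes in that refit is not given. All of these values compare with UUO2, so library properties and the time of obstruction cannot be told apart in them.

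Rpl22l1 was called higher at day 7 than at day 2, with 216.7, 169.1, 212.0 and 215.8 rescaled FPKM in UUO2 and 268.2, 268.8, 319.9 and 245.2 in UUO7 (difference 0.44 ± 0.15, log2, SE, limma adjusted p = 0.0162), while its partner Rpl22 was called lower (difference -0.29 ± 0.09, limma adjusted p = 0.0115, and 0.06 on the deposited scale). The call for Rpl22l1 is lost without UUO7 replicate 3 (0.36) or UUO2 replicate 2 (0.35). Rpl35, at the rim of the exit tunnel, had 601.1, 563.3, 550.9 and 613.6 in UUO2 and 817.8, 782.6, 906.2 and 780.7 in UUO7, with no overlap (difference 0.49 ± 0.08, limma adjusted p = 1.33e-05, and 0.63 with its copy summed). Rps27l was called lower, from 584.1, 553.7, 550.0 and 534.3 to 462.1, 452.3, 480.9 and 395.5 (difference -0.31 ± 0.09, limma adjusted p = 0.0047, and 0.04 on the deposited scale), and Rpl3l fell further by 0.60.

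Among the extreme values of this interval, several rest on the split between a gene and its copy. Rps13, a protein of the small-subunit platform, had 657.2, 599.3, 684.5 and 795.6 rescaled FPKM in UUO2 and 462.3, 431.7, 478.5 and 404.5 in UUO7. Its copy Rps13-ps2 was at 68.05, 34.23, 5.12 and 0.0 in UUO2, where it had 121.7 to 149.2 in sham, and at 227.5 to 386.9 in UUO7. The fall of 0.62 in the gene's own row became 0.03 higher with the copy summed. Rpl37 had an estimate of 0.52 in its own row and -0.12 with its copy summed, and Rpl28 had -0.82 and -0.43. For Rps13 and Rpl37 the direction at day 7 against day 2 thus differs between the gene's own row and the sum.

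One week after reversal the members were at or slightly below their level at day 7. Of the 81 members 0 were called higher and 13 lower with limma (0 higher also at an unadjusted p under 0.05, and 0 in the authors' deposited table), where 7.26% of all genes tested were called higher and 7.14% lower, and 76 of the 81 estimates were negative. The median difference was -0.17 (0.887-fold) and that of all genes 0.01. This count is not stable: it was 45 without R1W replicate 3 (median -0.28), 6, 8 and 3 without R1W replicates 1, 2 and 4, 5 without UUO7 replicate 1 and 5 without UUO7 replicate 3. The share of all genes called in these refits is not given, so these counts describe stability only. The members called lower include Rplp0, with 804.8, 794.3, 887.3 and 747.9 rescaled FPKM in R1W (difference from UUO7 -0.33 ± 0.07, limma adjusted p = 0.00739). Rpsa, with 711.8, 651.0, 856.4 and 645.6 in R1W, was also called lower (difference -0.41 ± 0.10, limma adjusted p = 0.0142), a call lost without R1W replicate 4 (-0.36) or UUO7 replicate 3 (-0.35). Rpl3, which shapes the catalytic centre, was called lower by 0.25 (SE 0.07, limma adjusted p = 0.0225). Without R1W replicate 3 these differences were -0.38 for Rplp0, -0.50 for Rpsa and -0.24 for Rpl3, all called.

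Rpl12 had the lowest estimate, at 19.84, 24.16, 20.89 and 17.67 in its own row (difference -0.56 ± 0.16, limma adjusted p = 0.0262). Its call is lost without R1W replicate 1 (-0.55) or 4 (-0.49), without UUO7 replicate 1 (-0.51) or 2 (-0.55), and with copies summed (-0.38), and it was called without R1W replicate 3 (-0.57). Rpl37 had an estimate of -0.38 that missed the threshold (limma adjusted p = 0.0543) and was called without R1W replicate 3, at -0.51. With its copy summed it was -0.24. At the other end stood Rpl3l (0.17), Rpl5 and Rpl35a (0.06 each), none of them called. Rpl5, most of whose signal lies in its copy, was at -0.20 with copies summed. Rpl5 and Rpl35a had negative estimates without R1W replicate 3 (-0.07 and -0.08), and Rpl35a also without UUO7 replicate 4 (-0.002). In R1W replicate 3 the 81 genes summed to 78260 rescaled FPKM, and in the other 3 R1W libraries to 60776 to 61615.

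Between 1 and 4 weeks of recovery most members were lower by the later time. Of the 81 members 54 fell and 1 was called higher, where 8.6% of all genes tested were called lower and 8.67% higher. The median difference was -0.32 (0.801-fold) and that of all genes 0.01. For 58 members all R4W libraries lay below all R1W libraries, which was so for 11.2% of all genes. Without R1W replicate 3 the count was 14 with a median of -0.24, without R4W replicate 4 it was 31, and a fit on the 2 groups alone called 1 member. For these refits the share of all genes called is not given.

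The largest fall was that of Rpl22l1, from 196.0, 246.7, 393.9 and 219.1 rescaled FPKM in R1W to 138.8, 142.7, 149.7 and 139.7 in R4W, with no overlap (difference -0.83 ± 0.15, log2, SE, limma adjusted p = 0.00368). Rpl22 fell by 0.45 (SE 0.09, limma adjusted p = 0.00621) and Rpl39 by 0.52 (SE 0.10, limma adjusted p = 0.00468). Rpl36a had 323.7, 353.5, 547.1 and 339.6 in R1W and 251.6, 272.9, 274.7 and 218.9 in R4W and fell by 0.59 (SE 0.14, limma adjusted p = 0.012), a call lost without R1W replicate 3 (-0.42). Rplp1, with 1755.7, 1736.2, 1874.0 and 1427.3 in R4W, fell by 0.42 (SE 0.12, limma adjusted p = 0.0272), a call also lost without R1W replicate 3 (-0.31). Without that library Rpl22l1 (-0.62), Rpl22 (-0.34) and Rpl39 (-0.42) were still called lower. Rpl10 was the member called higher (difference 0.43 ± 0.14, limma adjusted p = 0.0339). Its difference was -0.16 with copies summed, and the call was lost on the deposited scale (0.36) and without R4W replicates 2, 3 or 4 (0.40, 0.44 and 0.36) or R1W replicates 1, 3 or 4 (0.40, 0.41 and 0.38). Rpl30 (-0.07) and Rpl3l (0.31) were not called.

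At 4 weeks after reversal, 22 of the 81 members were called above sham and 3 below it, where 28.9% of all genes tested were called higher and 31.1% lower. The share of members called higher by limma on the rescaled values was thus near that of all genes. Their median difference was 0.16 (1.12-fold) against -0.01 for all genes, and 70 of 81 estimates were positive. On the deposited scale 76 members were called higher and 2 lower (all genes 54.8% and 11.6%), with a median of 0.53, where the typical gene was 0.30 higher. The count of 25 was 15 without R4W replicate 2, 14 without R4W replicate 3, 16 without sham replicate 3, and 16 with R4W replicate 2 placed in R2W as its treatment label has it. It also moved upward: leaving out each library gave 14 to 31, and a fit on the 2 groups alone called more members. The share of all genes called in these refits is not given.

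Rps4x stayed above sham, with 578.9, 636.4, 639.6 and 561.9 rescaled FPKM in R4W against 408.3 to 439.7 in sham (1.42-fold, limma adjusted p = 4.47e-05). Rps16 had 475.9, 492.2, 492.6 and 396.8 (1.47-fold, limma adjusted p = 2.01e-04), and its rise was 0.41 with the copy summed in place of 0.55. Rpl12 had 17.79, 19.46, 22.99 and 15.43 (difference 0.64 ± 0.16, limma adjusted p = 0.00185, and 0.48 with copies summed). Rps27 (1310.9, 1439.9, 1455.8 and 1260.0 against 1003.7 to 1140.1 in sham) was called higher, 1.27-fold (limma adjusted p = 0.0046). The groups did not overlap for any of these. Rplp0 (difference 0.03 ± 0.07), Rplp1 (0.19 ± 0.12) and Rpl41 (-0.19 ± 0.12) were not called.

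Below sham were Rpl3l, Rps27l and Rpl7l1, which are second forms of another member. Rpl22l1, also a second form, was not among them. Rps27l had 348.5, 365.3, 345.9 and 350.0 rescaled FPKM, its lowest group mean, and fell by 0.64 (SE 0.09, limma adjusted p = 5.47e-06), and by 0.26 on the deposited scale. Rpl3l had 1.09, 1.27, 1.70 and 1.89 and fell by 0.97 (SE 0.16, limma adjusted p = 4.15e-05). Rpl7l1 had 33.36, 30.45, 32.45 and 30.56 and fell by 0.24 relative to the typical gene (SE 0.06, limma adjusted p = 0.00103), and its difference is +0.12 on the deposited scale.

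The ratio of a second form to its partner within a library does not depend on the scaling, and it is given here as a description. Rpl22l1 was at 29.6%, 30.3%, 29.4% and 33.2% of Rpl22 in sham, at 25.2%, 21.5%, 25.7% and 22.7% in UUO2 and at 37.9%, 39.6%, 40.9% and 38.7% in UUO7. These 3 groups did not overlap, with UUO2 below and UUO7 above sham. In R1W it was at 35.7%, 41.8%, 50% and 36.8%, in R2W at 29.5% to 35.2% and in R4W at 30.4% to 32.2%, within the sham range. Rpl22 is known to repress Rpl22l1 through its message.

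Rps27l was at 56.6%, 42.9%, 56.4% and 50.5% of Rps27 in sham, at 39.0%, 37.9%, 37.7% and 30.7% in UUO2 and at 27.1%, 25.7%, 25.1% and 23.8% in UUO7. Unlike that of Rpl22l1, this ratio remained low after reversal, at 20.3% to 26.6% in R1W, 20.9% to 34.2% in R2W and 23.8% to 27.8% in R4W, all below the lowest sham library. Rpl7l1 was at 7.70% to 8.96% of Rpl7 in sham, 4.35% to 4.92% in UUO7 and 5.24% to 6.28% in R4W. Rpl3l was at 0.718% to 0.906% of Rpl3 in sham, 0.0867% to 0.134% in UUO7 and 0.227% to 0.368% in R4W. For these last 3 pairs every library outside sham lay below every sham library.

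**Figure D4:**
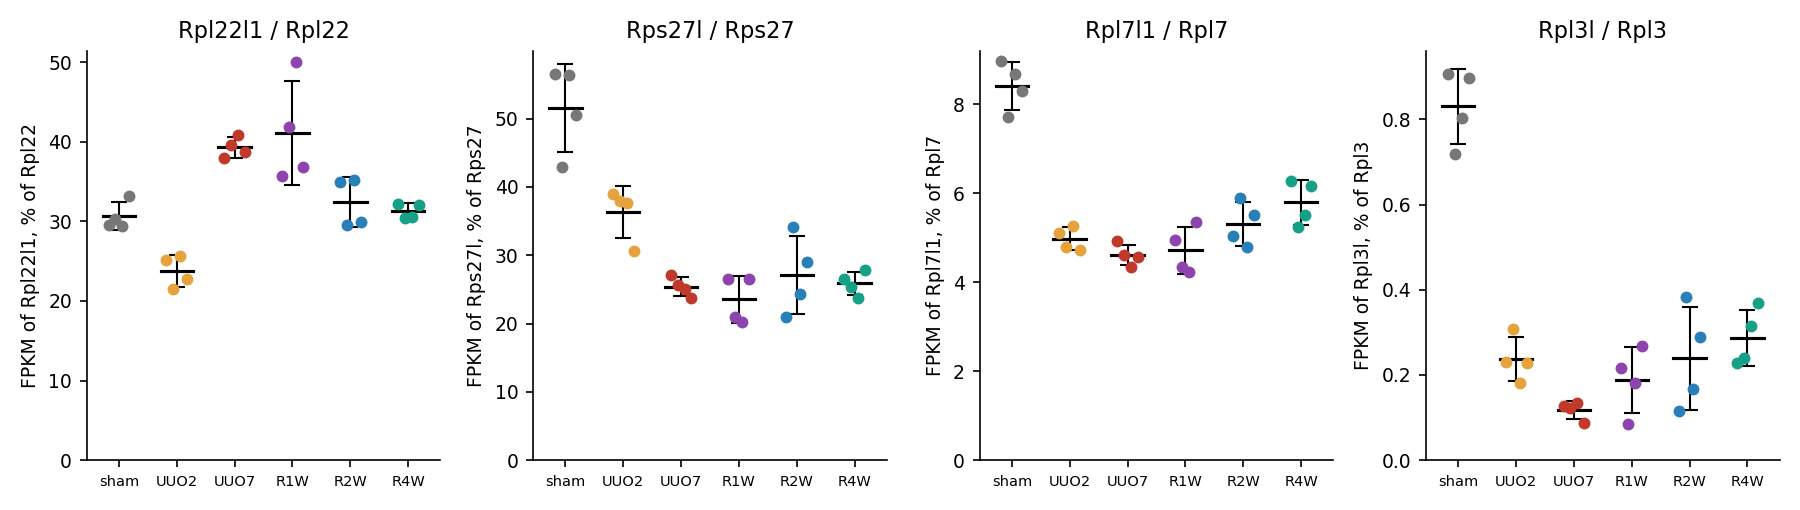
FPKM of 4 second forms as a percent of their partner in each library (points, 4 mice per group, with mean and SD), each axis starting at 0. Rpl22l1 falls to 21.5% to 25.7% of Rpl22 in UUO2, reaches 37.9% to 40.9% in UUO7 and is at 30.4% to 32.2% in R4W, while Rps27l, Rpl7l1 and Rpl3l lie below all sham libraries in every other group.

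Genes that work with the ribosome but lie outside the rule were followed beside it. Their counts, and those of the marker lists, stand against 25.3% of all genes called higher and 25.5% lower than in sham at 2 days, 36.5% and 36.5% at 7 days and 28.9% and 31.1% at 4 weeks of recovery. Without rescaling these shares were 32.3% and 17%, 60.1% and 17.8%, and 54.8% and 11.6%. Of 18 translation factors and other known TOP messages, 16 rose at 2 days and 0 fell, and at 7 days 11 rose and 1 fell, and on the deposited scale 18 and 17 were called higher and 0 lower. Hnrnpa1, an RNA-binding protein with a TOP message, rose 2.51-fold at 2 days, from 69.9 ± 2.86 to 177 ± 13.8 rescaled FPKM (SD, n = 4 each, limma adjusted p = 3.81e-08). Eef1b2, an exchange factor of elongation, rose 1.84-fold at 7 days, from 373 ± 10.6 to 687 ± 62.7. The initiation factor subunit Eif3l was the one that fell at 7 days (difference -0.42 ± 0.08, limma adjusted p = 1.40e-04), and it was 0.06 higher on the deposited scale. At 4 weeks of recovery 1 of the 18 was called above sham and 4 below, and on the deposited scale 15 above and 0 below.

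Of 32 genes of ribosome assembly, 19 rose and 2 fell at 2 days, and 10 rose and 3 fell at 7 days, while between these times 2 were called higher and 14 lower (all genes 30.0% and 31.9%). The 10 of 32 called higher at 7 days are a smaller share than that of all genes. On the deposited scale 21 and 30 of the 32 were called higher than in sham and 0 lower, and from day 2 to day 7 14 higher and 0 lower (all genes 52.0% and 14.7%). Nop58, of the particles that methylate ribosomal RNA, rose 2.33-fold at 2 days, from 26.1 ± 2.69 to 65.1 ± 20.6 (SD, n = 4 each), and the nucleolar chaperone Npm1 rose 1.91-fold at 7 days, from 131 ± 4.39 to 251 ± 25.9. Nhp2, of the particles that convert uridines in ribosomal RNA, fell at both times relative to the typical gene (differences -0.33 and -0.47) and had -0.19 and 0.01 on the deposited scale. Among ribosomal genes that the naming rule misses, Rack1 and Fau rose at both times, and Rpl36al was called higher at 2 days and not at 7 days (differences 0.30 at 2 days and -0.10 at 7 days), whereas its deposited values gave 0.44 and 0.38, both called higher.

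Among 15 genes of growth signalling Myc, a transcription factor that drives ribosome production, had the largest rise. It had 2.82 ± 0.90 rescaled FPKM in sham, 22.2 ± 8.86 in UUO2, 25.9 ± 3.55 in UUO7 and 8.26 ± 2.55 in R4W (SD, n = 4 each), and the rises over sham were 5.78-fold, 7.13-fold and 2.39-fold (limma adjusted p = 2.91e-07, 1.2e-08 and 4.71e-04). The row of Mtor, the kinase that governs translation of TOP messages, fell from 62.5 ± 12.8 to 21.7 ± 7.76 in UUO2 and 10.3 ± 2.05 in UUO7 (limma adjusted p = 4.68e-05 and 2.28e-08), and was 26.4 ± 2.68 in R4W. Eif4ebp1, a translation inhibitor that mTOR phosphorylates, rose 3.25-fold at 2 days and 2.89-fold at 7 days. Of the 15 genes 3 rose and 3 fell at 2 days, and 6 rose and 8 fell at 7 days, and on the deposited scale 4 rose and 1 fell, then 7 rose and 1 fell.

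The proteins of the mitochondrial ribosome, which translates the few messages encoded in mitochondria, differed from those of the cytosolic one in their counts, given here on both scales. Of 79 Mrpl and Mrps genes 9 rose and 25 fell at 2 days, 4 rose and 61 fell at 7 days and 0 rose and 72 fell at 4 weeks of recovery relative to the typical gene, with medians of -0.16, -0.46 and -0.50. On the deposited scale the medians were -0.02, 0.02 and -0.13, with 20 called higher and 16 lower at 2 days, 28 higher and 20 lower at 7 days and 4 higher and 27 lower at 4 weeks. Of all genes 25.3% were called higher and 25.5% lower at 2 days. The shares were 36.5% and 36.5% at 7 days and 28.9% and 31.1% at 4 weeks. As deposited they were 32.3% and 17%, 60.1% and 17.8%, and 54.8% and 11.6%. The share called higher among the 79 genes was smaller, and the share called lower larger, at each time on both scales. The difference in lower calls was small at 2 days. Higher calls outnumbered lower ones only on the deposited scale at 2 and 7 days. Mrpl12 fell from 248 ± 12.1 to 110 ± 11.6 rescaled FPKM at 7 days (SD, n = 4 each, limma adjusted p = 2.61e-07).

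**Figure D5:**
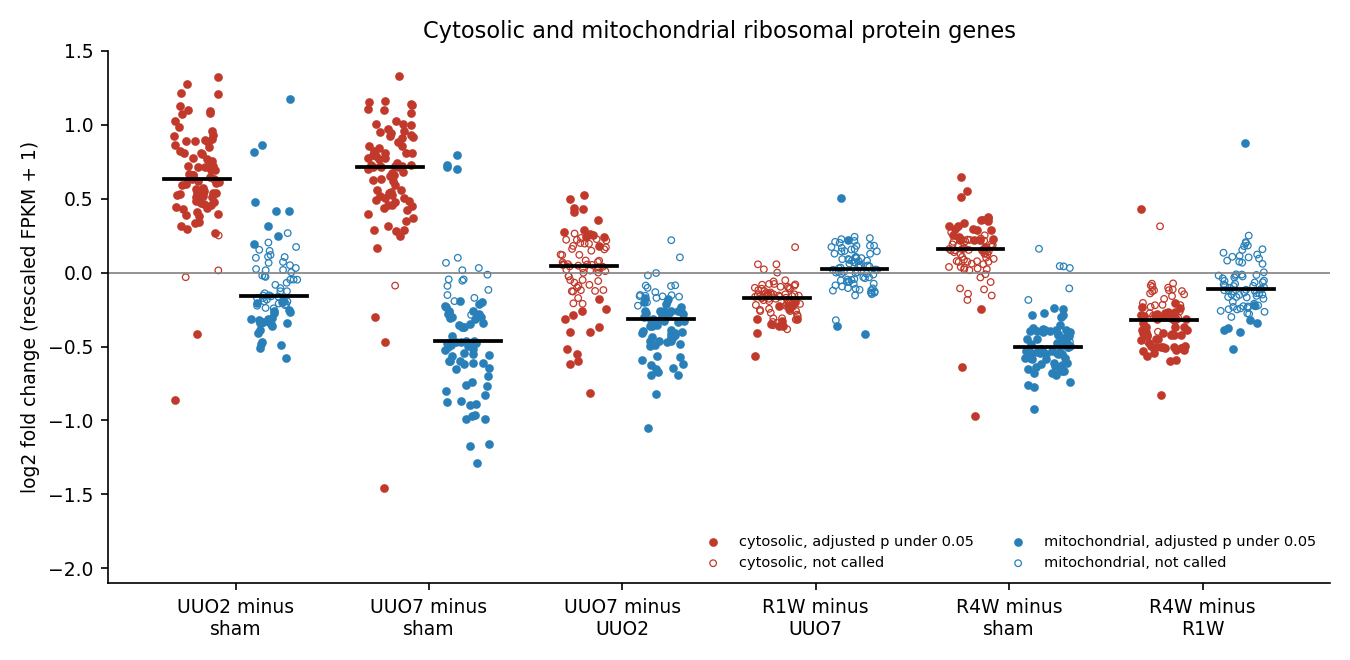
Log2 fold change of each of 81 cytosolic (red) and 79 mitochondrial (blue) ribosomal protein genes in 6 comparisons on rescaled values. Filled points were called at an adjusted p under 0.05 and black lines are medians, at 0.72 and -0.46 for UUO7 minus sham and at 0.16 and -0.50 for R4W minus sham.

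Markers of cell types moved with the groups, and their part in the ribosomal protein results was not tested. All 6 proximal tubule genes fell at 7 days and 5 of them at 2 days, and their sum was 1550 to 2600 rescaled FPKM in UUO2, 886 to 1630 in R1W and 1500 to 2230 in R4W. All 6 macrophage genes rose at 7 days and 4 rose and 1 fell at 2 days, and their sum was 62.1 to 94.8 in sham, 92.6 to 210 in UUO2, 839 to 978 in UUO7, 915 to 1180 in R1W and 674 to 1270 in R4W. All 5 fibroblast genes rose at 7 days and 3 rose at 2 days, with sums of 36.2 to 77.3 in sham, 108 to 209 in UUO2 and 444 to 577 in UUO7. All 5 cell cycle genes rose at both times, with sums of 5.44 to 6.63 in sham, 36.5 to 72.6 in UUO2, 48.7 to 60.6 in UUO7, 24.4 to 34.0 in R1W and 12.0 to 25.1 in R4W. The 4 lymphocyte genes with a row summed to at most 3.06 in sham and UUO2 and to 8.90 to 12.6 in UUO7. The 5 urothelial genes summed to 39.6 in sham replicate 2 and to 1.84 to 2.88 in the other sham libraries, and to 39.6 to 134 in R4W. The 4 adipose genes summed to 231 in sham replicate 2, to 983 in R4W replicate 1 and to 42.8 to 199 in the other libraries.

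The deposited table also carries the authors' own comparisons. At an adjusted p under 0.05 the authors' deposited table had, against sham, 76 members higher and 1 lower in UUO2 (all genes 26.7% and 24.4%), 76 and 3 in UUO7 (35.8% and 37.9%) and 39 and 8 in R4W (30.9% and 34.8%). In R4W the authors' deposited table thus called 48.1% of the members higher than in sham, above its share of all genes, unlike the count by limma on the rescaled values. The authors' deposited table had 13 higher and 10 lower in UUO7 relative to UUO2 (all genes 27.9% and 33.7%), 0 and 20 in R1W relative to UUO7 (10.3% and 11.2%), and 0 and 53 in R4W relative to R1W (8.75% and 9.13%).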

How the data were processed

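The authors deposited 1 table of 14785 genes and 24 libraries, whose unit is not given in the sources used here. FPKM was inferred from the deposited values, whose column sums were 717415 to 830179 (ratio 1.16) and varied less when weighted by transcript length (ratio 1.08). FastQC, Bowtie2, RSEM, DESeq2 and build mm10 are named per the submitters' processing notes, with no role or version. The table's log2 fold changes and adjusted p-values for 15 comparisons are the authors' own, per the file headers, and the deposited sources used here do not name their test. Coordinates are those of the deposited table, and 73 of the 81 members have the same ones in GENCODE M21.

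For scaling, each gene's value was set against that gene's geometric mean over libraries, and each library was divided by its median ratio over 14402 genes. limma 3.58.1 (R 4.3.3, lmFit, eBayes with trend) was run on log2(rescaled FPKM + 1), pseudocount 1, with no filter beyond the table's own (smallest gene mean 1), and all 24 libraries shared one fit. Members, lists and tests were chosen with earlier results of these data known. In each comparison the 3 members of highest and 3 of lowest estimate were named, with the stalk proteins, Rpsa, paralog pairs and the 3 most abundant members, and from other lists the 2 highest and 2 lowest. The 10 promoter windows printed were chosen among named members after their sequences and values were seen. Promoters are those of RefSeq. Copies were found with blastn 2.17.0 on GENCODE M21 transcripts (at least 95% identity, 200 bases and 80% of the copy). Alternatives were values as deposited, pseudocounts 0.1 and 10, a minimum mean of 50, fits on the 2 groups compared or without UUO2, adjusted p under 0.01, a replicate block, R4W replicate 2 placed in R2W, each replicate left out, and, chosen after seeing the data, copies summed.

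Depth is not given. Whole-read steps in low values imply 24900000 to 35300000 fragments in the 20 libraries outside UUO2, and 73300000 in UUO2 replicate 3, with none found in the other 3. Steps were accepted at a score above 7, and the 20 libraries had 7.16 to 10.13. UUO2 replicate 3 had 7.71, close to this cut, and UUO2 replicates 1, 2 and 4 had 5.59, 2.56 and 6.51. The depth of UUO2 is therefore uncertain. On simulated UUO7 against sham data with 14785 genes, 79 of 100 genes changed by 0.75 (log2) and 96 of 100 changed by 1.5 were called, with 5 unchanged genes called. Only these genes were changed in the simulation, whereas 36.5% of all genes were called higher and 36.5% lower in the data. The simulated rates therefore do not carry over to the real comparison. Some named genes are not reported here.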

Additional observations from a re-analysis of the deposited data

Results flagged for a closer look

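Among 222 checks of a library against the other 3 of its group, 16 values in 5 libraries had a gap to their neighbour above Dixon's critical value, where chance gives about 1 in 20, or 11.1. The checks are not independent, because sums and members of these sums were checked in the same libraries. R1W replicate 3 was the highest of its group in 10 of them. Its sum of the 81 genes was 78260 rescaled FPKM and 96802 with copies, against 60776 to 61615 and 74533 to 75874 in the other 3 libraries. Its single-gene values were 547.1 for Rpl36a, 739.2 for Rpl37, 815.7 for Rpl39, 2845.1 for Rplp1, 474.1 for Rps13, 772.1 for Rps16, 2187.4 for Rps27 and 1350.3 for Rps28, and the cause was not tested.

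UUO2 replicate 4 had 3261.9 for Rpl13a and 1743.1 for Rps27, above the other UUO2 libraries, and Rps27l at 30.7% of Rps27, below them. UUO2 replicate 2 had 169.1 for Rpl22l1, sham replicate 3 had 2272.6 for Rpl41 and sham replicate 1 had 649.8 for Rplp0, each the lowest of its group.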

How the results depend on the processing

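The counts for UUO2 and UUO7 against sham stayed within 1.5 times under every alternative run. Counts of called members that moved by more were, for UUO7 against UUO2 (26), 65 as deposited and 14 at an adjusted p under 0.01. For R1W against UUO7 (13) they were 20 with a minimum mean of 50, 3 in the 2-group fit and 3 at 0.01. For R4W against sham (25) they were 78 as deposited, 43 in the 2-group fit, 12 at 0.01 and 16 with R4W replicate 2 in R2W, and for R4W against R1W (55) 1 in the 2-group fit and 13 at 0.01. Leaving out each replicate gave 77 to 78, 79 to 80, 17 to 31, 3 to 45, 14 to 31 and 14 to 58 called members in the order UUO2 and UUO7 against sham, UUO7 against UUO2, R1W against UUO7, R4W against sham and R4W against R1W. The replicate block gave 78, 80, 26, 11, 24 and 51 in that order. The share of all genes called is not given for the refits or the 0.01 threshold. These counts therefore describe how stable the calls were, and not how the members stand against all genes. In the main fit same-numbered libraries were not treated as pairs. The mean correlation of their deviations was -0.05, -0.12, -0.04, 0.15, -0.17 and 0.07 in the same order of comparisons. In R1W against UUO7 it ranged from -0.084 to 0.458. So few pairs cannot decide whether the numbers pair the samples.

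Among the single-gene values under alternatives, 767 kept direction and call, 35 lost and 3 gained it and 15 reversed. These cover the members of most extreme estimate in each comparison and, for UUO7 against sham, the other named members. Some reversals of other genes as deposited (Rpl22 and Rps27l in UUO7 against UUO2, Eif3l and Rpl36al at 7 days) stand beside their results. Among the values covered, those that reversed as deposited were Rpl7l1 at 2 days (0.10), 7 days (0.39) and R4W (0.12), and Rpl10 (0.019) and Rps27l (0.19) at 7 days. With copies summed they were Rpl10 at 2 days (0.80), 7 days (0.40) and R4W against R1W (-0.16), Rpl37 (-0.12) and Rps13 (0.028) at UUO7 against UUO2 and Rpl5 at R1W against UUO7 (-0.20). Without 1 library they were Rpl7l1 without UUO2 replicate 2 (0.005, leaving out each library -0.058 to 0.005), Rpl5 without R1W replicate 3 (-0.068, range -0.068 to 0.143), and Rpl35a without R1W replicate 3 (-0.081, range -0.081 to 0.138) or UUO7 replicate 4 (-0.002). Other causes were not tested, and depth is known only from steps in low values.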
